A study of Rattus norvegicus with 8 samples.

Results

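Genes of the secreted BMP and Wnt signalling systems were followed in a rat knee ligament, the medial collateral: Nbl1, Sfrp4, Fst, Bmp2, Bmp3, Bmp4 and Inhba. These 7 genes, of 4737 with a probe set of their own on the array, were chosen by name. Every probe set whose only gene symbol in the probe table was one of the 7 was taken, which gave 10 of the 8799 probe sets. The choice was made with earlier results in view: Nbl1 and Sfrp4 had already stood out between loaded healing and other ligaments. Their values in the comparisons that use the loaded healing arrays are therefore a description, given without p-values. Nothing is read from whether they passed a threshold there. The label given to the set, BMPs and secreted BMP or Wnt antagonists, covers 6 of the 7 genes, while Inhba encodes a subunit of activin A, a relative of the BMPs.

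Bone morphogenetic proteins (BMPs) are secreted ligands of the TGF-beta superfamily that bind pairs of serine/threonine kinase receptors and act through SMAD proteins. Their reach is set outside the cell by antagonists that hold the ligand away from its receptor. Wnt ligands are a separate family that act through Frizzled receptors and are likewise held back by secreted binding proteins. In tendon and ligament, BMPs are known for driving cartilage and bone formation at attachment sites and in ectopic ossification.

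The arrays covered 4 groups of 2, all sampled at 3 weeks. Loaded control rats had sham surgery. In loaded healing rats the ligament was disrupted on both sides. In unloaded healing rats the same injury was followed, from 24 h after surgery, by hindlimb unloading by tail suspension, which keeps the hind legs from bearing weight. Unloaded control rats were suspended in the same way without any sham operation, and between the control groups the operation and the unloading cannot be told apart. Healing against control therefore sets injury against a sham operation in loaded rats, but against no operation in unloaded rats. Strain, sex and age, and whether the arrays of a group came from separate animals, pools or repeats, are not stated in the labels. The p-values therefore measure only the spread between arrays, which may be technical, and 2 arrays a group limit every precision.

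Values are signal intensities per probe set, already scaled between arrays by the authors, with medians of 238.7 to 315.9. The unloaded controls stood apart. Across tested probe sets their log2 signals correlated with those of the other 6 arrays at 0.492 to 0.608, against 0.761 to 0.872 among those 6. Markers of tendon and ligament fibroblasts, which should mark the labelled tissue, were low there: the summed signal of 14 of 17 listed genes (those on the array) was 8951 and 7145, against 57168 to 132760 on the other arrays. The brightest Col1a1 probe set (M27207mRNA_s_at), for the main chain of type I collagen, read 699.0 and 763.1 there and 34753 to 84666 elsewhere. Every value below that rests on the unloaded controls carries this limit, and results are given first for the 6 other arrays.

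Nbl1 encodes DAN, a secreted cystine-knot protein that binds BMPs. It was the member with the largest difference between loaded healing and loaded control on the log2 scale used here. Its promoter window, from 250 bases before to 50 after the transcript start in the RefSeq sequence of assembly GRCr8 (chr5:156613133-156613432, minus strand), is shown because it holds 1 copy of GGCGCC, a GC-rich motif that SMADs of the BMP branch can bind. Capitals mark that motif.
Nbl1 promoter: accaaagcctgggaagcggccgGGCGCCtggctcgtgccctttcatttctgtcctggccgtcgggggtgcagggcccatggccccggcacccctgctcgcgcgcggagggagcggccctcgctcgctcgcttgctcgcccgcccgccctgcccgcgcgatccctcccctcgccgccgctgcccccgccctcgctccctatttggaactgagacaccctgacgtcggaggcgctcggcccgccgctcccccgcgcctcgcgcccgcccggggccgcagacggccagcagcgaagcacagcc
GGCGCC, which reads the same on both strands, occurs in 11% of 33469 promoter windows of this length. CTTTGA, the core of TCF/LEF sites that carry the Wnt response, was searched on both strands, does not overlap GGCGCC, is not in the Nbl1 window and occurs in 16.1% of windows. Windows for Bmp3, Bmp4 and Inhba held no GGCGCC, and that of Inhba held 1 CTTTGA. Sfrp4, Fst and Bmp2 were not matched. These are matches of letters only, since neither binding nor chromatin was measured, and the window has a GC content of 76.7%.

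Nbl1 signal (S72637_s_at) was 1988.5 and 2201.2 in loaded control ligaments and 158.6 and 482.8 in loaded healing ligaments. It was 1982.4 and 2052.5 in unloaded healing and 1045.4 and 1181.3 in unloaded control ligaments. Both loaded healing arrays lay below the other 6, and the unloaded healing arrays lay within or just below the loaded control range. The loaded healing arrays differed from each other 3.04-fold, while no other group's arrays differed by more than 1.13-fold.

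On the log2 scale, after an offset of 45.8 was added to every signal, Nbl1 was lower in loaded healing than in loaded control ligaments by a difference of -2.70 ± 0.40 (SE; 6.50-fold, 95% interval -3.60 to -1.80, n = 2 arrays a group here and throughout). Unloaded healing exceeded loaded healing by 2.65 ± 0.40 (6.28-fold, 1.75 to 3.55). Both differences include the same loaded healing arrays with opposite sign. The difference that leaves them out, unloaded healing against loaded control, was -0.05 ± 0.40 for Nbl1 (-0.95 to 0.85). Limma's adjusted p over all tested probe sets was 0.998. The error and p still use those arrays, since all 4 groups share 1 estimate of the spread. The log2 SD of Nbl1 was 0.97 in loaded healing, 0.10 in loaded control and 0.03 in unloaded healing. The interval of -0.95 to 0.85 leaves room for a difference of nearly a doubling or halving, so the levels are not shown to be equal.

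Other readings were also low on the loaded healing arrays. The array's actin 3' control read 1353.1 and 1596.6 there, 4393.3 and 4955.3 on loaded control and 4786.3 and 5235.2 on unloaded healing arrays. The GAPDH 3' control read 1038.5 and 842.6 there, 2277.5 and 2334.6 on loaded control and 1948.0 and 1871.8 on unloaded healing arrays. On unloaded control arrays the actin 3' control was also low, at 1283.9 and 1493.7, while GAPDH 3' was 1885.6 and 2283.3. The geometric mean of the spike-in controls was 24046 and 23980 in loaded healing and 27201 to 39889 on the other arrays. The actin 5' control over its 3' control was 0.36 and 0.24 in loaded healing and 0.36 and 0.39 in loaded control. That ratio was 0.53 and 0.34 in unloaded healing and 0.96 and 0.63 in unloaded control. Markers of macrophages were instead high on the loaded healing arrays. The summed signal of 10 of 17 listed genes, 8 of them above the filter and none reading 0, was 34898 and 30820 in loaded healing. It was 8920 to 9654 in loaded control, 10179 to 10348 in unloaded healing and 6018 to 6305 in unloaded control ligaments. Skeletal muscle markers (16 of 20 listed genes) summed to 16766 and 22364 in loaded healing, 12852 and 13327 in loaded control, 15276 and 17508 in unloaded healing and 7658 and 8461 in unloaded control ligaments. Bright genes weigh most in such a sum. The median log2 difference of the 13 tested muscle genes between loaded healing and loaded control was 0.06, with a range of -0.81 to 1.18. The part of these shifts in the Nbl1 result was not tested. In bulk tissue, fewer cells of a type and less RNA per cell cannot be told apart.

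Sfrp4 encodes secreted Frizzled-related protein 4, which binds Wnt ligands through a domain like that of their receptors. Its signal (AF012891_at) was 458.7 and 780.5 in loaded control, 1136.0 and 1129.6 in loaded healing, 147.6 and 182.3 in unloaded healing and 404.8 and 639.3 in unloaded control ligaments. Both loaded healing arrays were the highest of the 8 and both unloaded healing arrays the lowest, with the control groups between them and overlapping each other.

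Sfrp4 was lower in unloaded than in loaded healing by a log2 difference of -2.49 ± 0.43 (5.61-fold, -3.45 to -1.53). Without the offset the ratio of the mean signals was 6.87. Loaded healing exceeded loaded control by 0.87 ± 0.43 (-0.09 to 1.83). Unloaded healing was below loaded control by a difference of -1.62 ± 0.43 (3.07-fold, -2.58 to -0.66), which did not pass with limma (adjusted p = 0.463). The groups did not overlap there, as for 32.3% of all tested probe sets. On these arrays Sfrp4 signal ran from loaded healing down through the controls to unloaded healing. Nbl1 was lowest in loaded healing and alike in range in loaded control and unloaded healing. The Sfrp4 order is a description only. Its upper step, from loaded control to loaded healing, had an interval that spanned 0, and its lower step did not pass. The macrophage marker sum was also highest in loaded healing, but was lowest in unloaded control, not in unloaded healing. Summed markers of cartilage and bone (18271 and 14736) and of adipocytes (16568 and 15905) were highest in loaded healing too. The part of these sums in the Sfrp4 result was not tested.

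**Figure D1:**
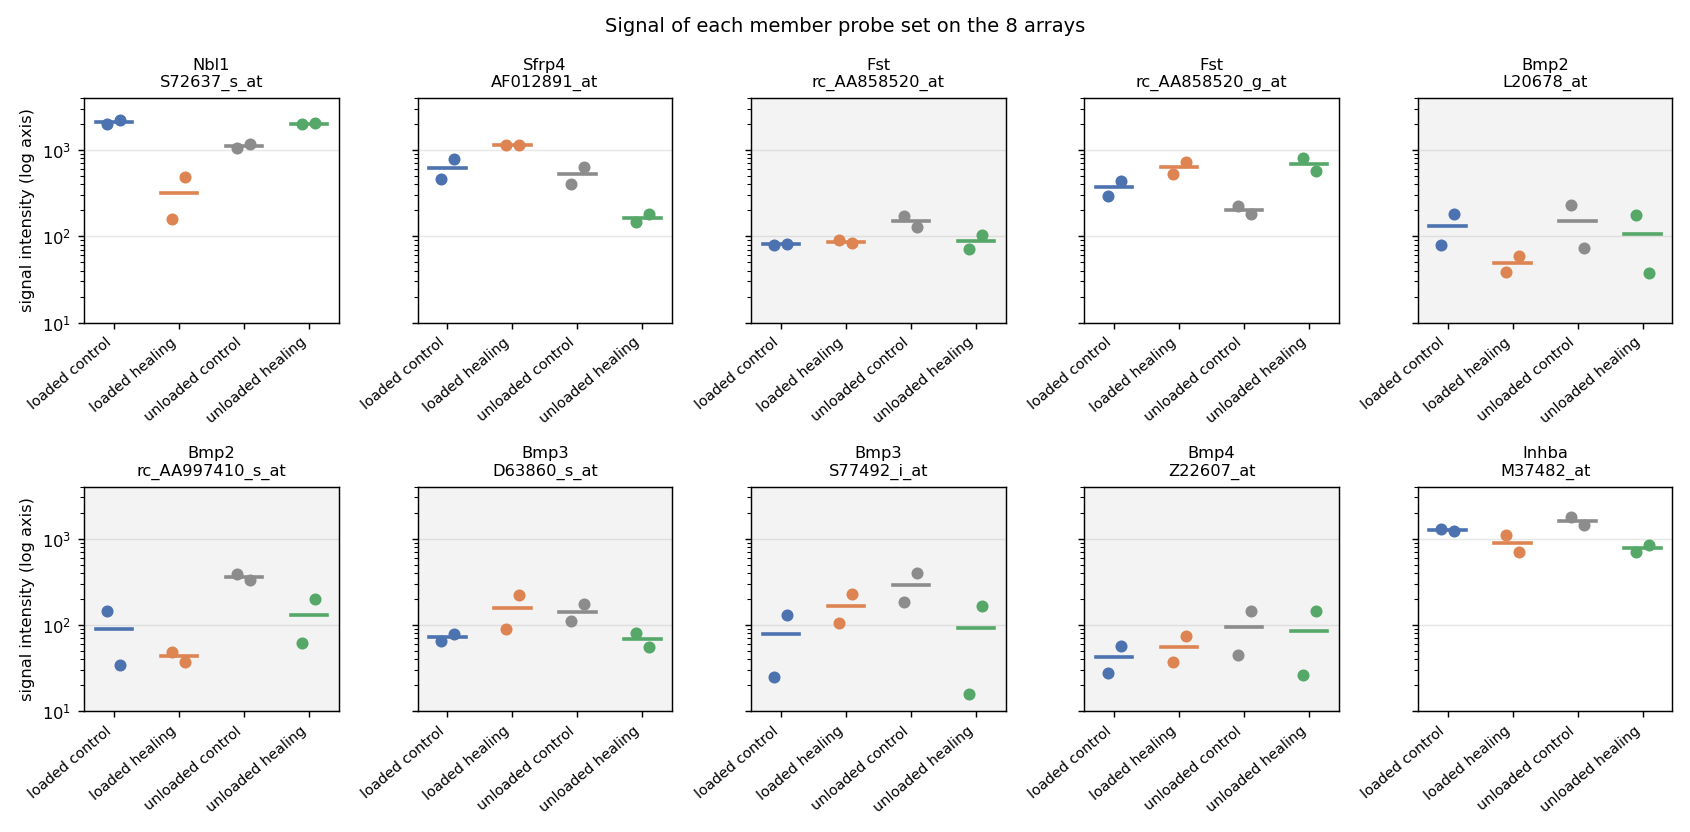
Signal intensity (log axis) of the 10 member probe sets on the 8 arrays; points are arrays, bars the means of the 2 arrays of a group, and grey panels the 6 probe sets below the filter on low signal. Nbl1 sits at 158.6 and 482.8 in loaded healing and at 1045.4 or more on the other 6 arrays, and Sfrp4 is highest in loaded healing and lowest in unloaded healing.

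Fst encodes follistatin, which binds activins tightly and some BMPs. Its brighter probe set (rc_AA858520_g_at) read 295.7 and 438.6 in loaded control, 532.2 and 730.2 in loaded healing, 802.3 and 564.9 in unloaded healing and 222.5 and 179.8 in unloaded control ligaments. Both healing groups lay above both control groups and overlapped each other. Between loaded healing and loaded control alone, 39.7% of all tested probe sets did not overlap. Its log2 difference was 0.72 ± 0.44 for loaded healing against loaded control (-0.27 to 1.71) and 0.10 ± 0.44 for unloaded against loaded healing (-0.89 to 1.09). Unloaded healing against loaded control gave 0.82 ± 0.44 (limma adjusted p = 0.923).

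The other Fst probe set (rc_AA858520_at) was dim, at 71.0 to 104.1 on the 6 arrays other than the unloaded controls, where it read 169.9 and 128.7. The unloaded controls were thus lowest on one Fst probe set and highest on the other. The dim one differed by 0.07 ± 0.40 between loaded healing and loaded control and by -0.00 between the healing groups.

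Inhba encodes the beta A chain, which pairs with itself to form activin A, the ligand that follistatin holds, or with the alpha chain Inha to form inhibin A. Its signal (M37482_at) was 1277.1 and 1220.5 in loaded control, 1090.7 and 694.5 in loaded healing, 702.8 and 837.1 in unloaded healing and 1773.1 and 1436.5 in unloaded control ligaments. Both control groups lay above both healing groups, the reverse of the order on the brighter Fst probe set, and the healing groups overlapped. Groups without overlap were common among all tested probe sets. The share was 39.7% between loaded healing and loaded control and 52.2% between unloaded healing and unloaded control. The share with both at once was not counted, and the order rests in part on the unloaded controls, so nothing is read from it. The log2 difference of Inhba was -0.50 ± 0.30 for loaded healing against loaded control (-1.18 to 0.18) and -0.17 ± 0.30 for unloaded against loaded healing (-0.85 to 0.51). For unloaded healing against loaded control it was -0.67 ± 0.30 (-1.35 to 0.01, limma adjusted p = 0.871).

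The 3 BMP ligands had a low mean signal over the 8 arrays on all their 5 probe sets. These and the dim Fst probe set fell among the dimmest 40% by mean log2 signal, which were not tested, so 4 of 10 members were tested, 1 each for Nbl1, Sfrp4, Fst and Inhba. The brightest member below that filter was a Bmp3 probe set at a mean log2 of 7.41, and the dimmest above it was the brighter Fst probe set at 8.87, with the filter at 7.89. Of the 4 tested, Sfrp4 had 1 group mean under the filter, that of unloaded healing at 7.71. Of the untested, Bmp2 (rc_AA997410_s_at) and Bmp3 (S77492_i_at) had an unloaded control mean above it, at 8.65 and 8.33. For the dim probe sets, values and intervals come from the fit without a filter, and at this signal a difference between groups may not be detectable.

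Bmp2 encodes an osteogenic ligand and was measured by a pair of probe sets. The first (L20678_at) read 78.6 and 181.1 in loaded control, 38.7 and 58.8 in loaded healing, 175.6 and 37.9 in unloaded healing and 227.2 and 73.2 in unloaded control ligaments. The second (rc_AA997410_s_at) read 146.7 and 34.3, 49.1 and 37.2, 61.5 and 200.2, and 384.9 and 329.3 in the same order of groups. On the first, loaded healing lay below both control groups, and the unloaded healing arrays lay far apart. On the second, the loaded groups overlapped and the unloaded controls were highest. Loaded healing against loaded control gave log2 differences of -0.84 (-2.25 to 0.57) on the first and -0.48 (-1.83 to 0.86) on the second. Unloaded against loaded healing gave 0.53 (-0.87 to 1.94) and 0.87 (-0.48 to 2.22).

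Bmp3 encodes a BMP family member known as a negative regulator of bone mass. Its probe set D63860_s_at read 65.6 and 78.8 in loaded control, 89.7 and 221.9 in loaded healing, 81.1 and 55.7 in unloaded healing and 110.1 and 175.2 in unloaded control ligaments. Its other probe set (S77492_i_at) read 24.8 and 130.7, 105.4 and 229.5, 15.9 and 167.8, and 186.4 and 399.3 in that order, with a 10.6-fold gap between the unloaded healing arrays. Both loaded healing arrays were above loaded control on the first probe set, while on the second these groups overlapped. The log2 differences of Bmp3 were 0.69 (-0.40 to 1.79) and 0.87 (-0.82 to 2.56) for loaded healing against loaded control. They were -0.75 (-1.84 to 0.35) and -0.83 (-2.52 to 0.86) for unloaded against loaded healing.

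Bmp4, another osteogenic ligand, was the dimmest member (Z22607_at). It read 27.5 and 56.7 in loaded control, 37.4 and 74.9 in loaded healing, 26 and 144.6 in unloaded healing and 44.9 and 144.0 in unloaded control ligaments. All 4 groups overlapped. In every group the array numbered 1 read lower than that numbered 2 for Bmp4 and for Bmp3 on S77492_i_at. The summed signal of endothelial markers (6 of 10 listed genes) split likewise, at 2508 and 6394 in loaded control, 2913 and 6226 in loaded healing, 2924 and 6056 in unloaded healing and 6745 and 7626 in unloaded control ligaments. Its part in the Bmp3 and Bmp4 spread was not tested. The Bmp4 log2 difference was 0.21 (-1.02 to 1.44) for loaded healing against loaded control and 0.22 (-1.01 to 1.45) for unloaded against loaded healing.

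Set side by side, Nbl1 and Sfrp4 were the 2 members whose intervals lay clear of 0 between the healing groups, in opposite directions. The interval of each ligand, Inhba included, and of both Fst probe sets spanned 0 there and between loaded healing and loaded control. The BMP intervals were wide, reaching past 1 log2 unit on at least one side in every case, so a doubling or halving of those ligands would fit within them. The interval of Inhba between the healing groups stayed within 1 log2 unit. Nbl1 and Sfrp4 had already stood out in comparisons with loaded healing when chosen. Nothing is therefore read from their intervals lying clear of 0 or from their contrast with the ligands.

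**Figure D2:**
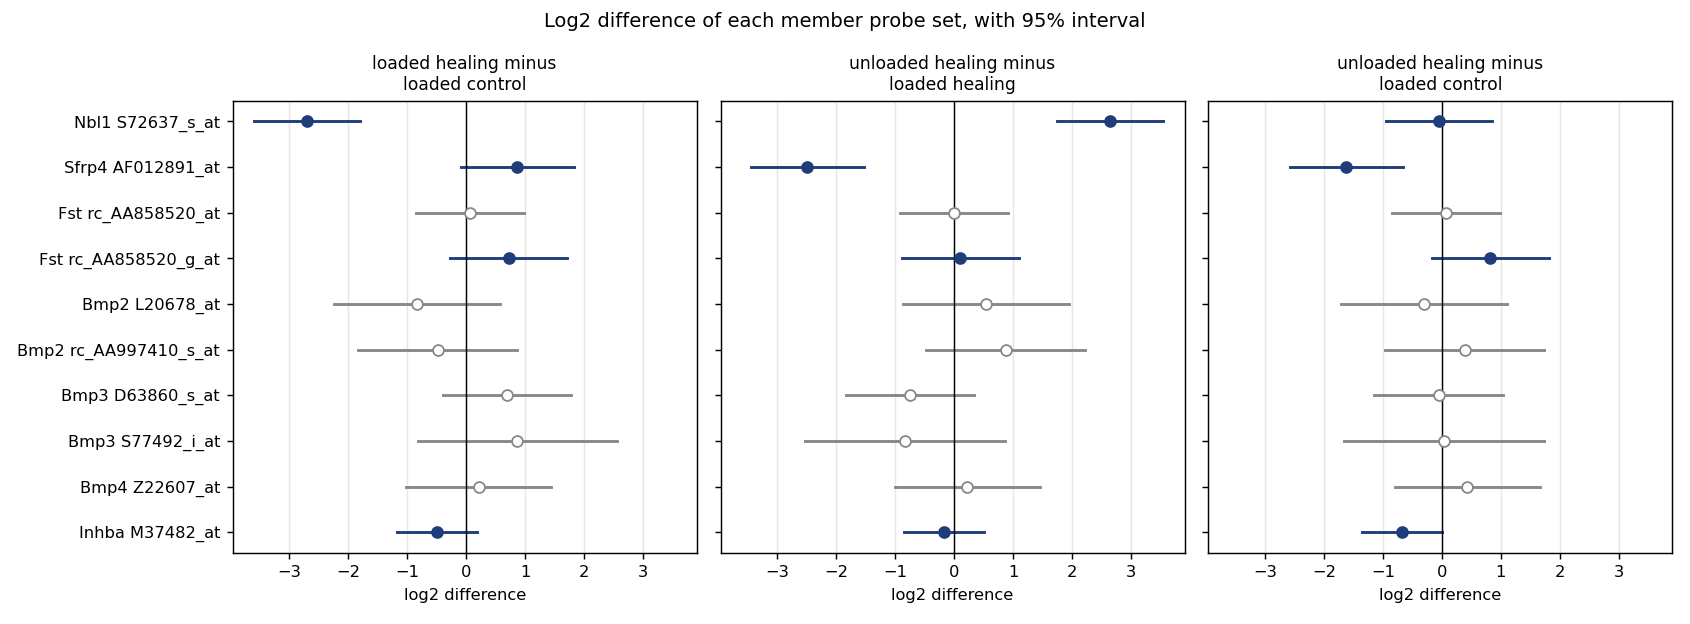
Log2 difference of each member probe set in 3 comparisons, with 95% intervals from the limma fit; filled points were tested and open grey points lay below the filter. Nbl1 reads -2.70, 2.65 and -0.05 from left to right and Sfrp4 0.87, -2.49 and -1.62.

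Counted by limma's threshold (adjusted p of 0.05 over the 5244 tested probe sets), 1 of 4 tested members passed between loaded healing and loaded control, Nbl1, against 2.02% of all tested probe sets. Between the healing groups Nbl1 and Sfrp4 passed, 2 of 4, against 1.62%. These comparisons helped to choose the members, so nothing is read from those counts. Between unloaded healing and loaded control 0 of 4 passed with limma, against 0.0763% of all, and 1 of 4 had an unadjusted p under 0.05 (5.55% of all). The arrays of the groups did not overlap for 4 of 4 tested members between loaded healing and loaded control (39.7% of all tested probe sets), for 2 of 4 between the healing groups (39.7%) and for 3 of 4 between unloaded healing and loaded control (32.3%).

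The calls between loaded healing and loaded control and between the healing groups were lost in some fits with 1 array left out, and also without an intensity trend in the variances. Nbl1 did not pass between loaded healing and loaded control without loaded control 1 (log2 difference -2.77) or loaded control 2 (-2.63), and did not pass between the healing groups without unloaded healing 1 (2.67) or unloaded healing 2 (2.63). Without loaded healing 1 the Nbl1 differences were -2.02 and 1.96, and without loaded healing 2 they were -3.39 and 3.34, and these passed. Sfrp4 did not pass between the healing groups without any one of the 4 healing arrays, with values of -2.61 to -2.37.

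Comparisons with the unloaded controls gave no call among the members. Unloaded control was below loaded control by a log2 difference of -0.89 ± 0.40 for Nbl1 (limma adjusted p = 0.291), -0.22 ± 0.43 for Sfrp4 (0.834) and -0.73 ± 0.44 for the brighter Fst probe set (0.447), and above it by 0.34 ± 0.30 for Inhba (0.607). With limma 0 of 4 passed, against 6.81% of all tested probe sets, and 0 of 4 had an unadjusted p under 0.05 (17.8% of all). Each of the 6 dim members read higher in unloaded than in loaded controls, by 0.10 to 1.69 log2 units (the latter Bmp2 on rc_AA997410_s_at, with an interval of 0.35 to 3.04), and 4 of them without overlap. Of the 4 tested members, 3 did not overlap there, against 51.1% of all tested probe sets. Of all 3496 probe sets below the filter, 34.5% were higher without overlap there and 7.92% lower, and their median difference was 0.26.

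In unloaded rats, healing exceeded control by 0.83 ± 0.40 log2 units for Nbl1 (limma adjusted p = 0.298) and by 1.55 ± 0.44 for the brighter Fst probe set (0.0691). Healing was below control by a difference of -1.40 ± 0.43 for Sfrp4 (0.0884) and -1.01 ± 0.30 for Inhba (0.0818). None of these 4 passed, against 7.46% of all tested probe sets, though 3 of 4 (Fst, Sfrp4 and Inhba) had an unadjusted p under 0.05 (19.1% of all) and the groups did not overlap for 4 of 4 (52.2% of all). The Fst difference passed under quantile normalization, median centring and a variance prior without the intensity trend, and that of Inhba under quantile normalization, with adjusted p over all settings of 0.0290 to 0.267 and 0.0471 to 0.357. Fibroblast markers were 8 higher and 0 lower of 14 in the same comparison, and their part was not tested.

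The healing difference in unloaded rats minus that in loaded rats was 3.54 ± 0.57 log2 units for Nbl1 (2.26 to 4.81) and -2.27 ± 0.61 for Sfrp4 (-3.63 to -0.92). The healing arrays lay on opposite sides of their controls, without overlap, in loaded and unloaded rats for both, as for 7.72% of all tested probe sets. That also held for the dim Fst probe set and Bmp3 (D63860_s_at), and for 6.15% of all probe sets below the filter. The same difference was 0.83 ± 0.63 for the brighter Fst probe set and -0.52 ± 0.43 for Inhba, with intervals that spanned 0. Nbl1 was the 1 of 4 tested members past limma's threshold, against 4.84% of all tested probe sets, and it passed in 8 of 8 fits with 1 array left out and in 10 of 10 other settings. Since this difference contains the loaded healing arrays, nothing is read from it. It also rests on unlike controls, sham-operated in loaded and unoperated in unloaded rats, so effects of the operation and of unloading cannot be told apart in it.

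The rest of the pathway was taken from lists of 141 genes, of which 52 were on the array and 36 above the filter. With limma, 0 of these 36 genes passed between loaded healing and loaded control, against 2.02% of all tested probe sets. There 2 had an unadjusted p under 0.05, or 5.56% against 11.7% of all. Between the healing groups 0 of 36 passed, against 1.62% of all (1 unadjusted, against 10.9%). Between unloaded healing and loaded control 0 of 36 passed, against 0.0763% (1 unadjusted, against 5.55%). With shares this low, a count of 0 among 36 genes is near that of all probe sets, and nothing is read from it. The median log2 difference of the 36 genes was 0.17, 0.04 and 0.12 in these comparisons, beside -0.03, 0.06 and 0.01 for all tested probe sets.

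By role, 6 further ligands or ligand subunits were measured: Amh, Bmp6, Gdf10, Inha, Inhbe and Mstn. On the brightest probe set of each they ranged from -1.02 to 0.41 log2 units between loaded healing and loaded control and from -0.87 to 0.51 between the healing groups. The 6 receptors, among them the type I receptors Acvr1, Acvr1b, Acvrl1 and Bmpr1a, ranged from -0.57 to 0.64 and from -0.14 to 0.87. Of the SMADs, which carry the signal to the nucleus, Smad2, Smad3, Smad4 and Smad9 were measured and ranged from -1.35 to 0.66 and from -0.16 to 0.98. The 6 BMP target genes, including Id1, Id2 and Id3, the inhibitors of differentiation that BMP signalling induces, ranged from -0.83 to 0.58 and from -0.57 to 0.21. For the Wnt side, the receptors Fzd1 and Ryk ranged from 0.40 to 0.96 and from -0.68 to -0.54, and 9 genes of signal transduction and targets, among them Gsk3b and Apc (and Tcf3, a symbol now used for the E protein E2A), from -0.85 to 0.28 and from -0.43 to 0.78. None of the 11 other listed Wnt antagonists was matched to a probe set, so Sfrp4 was the sole one.

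**Figure D3:**
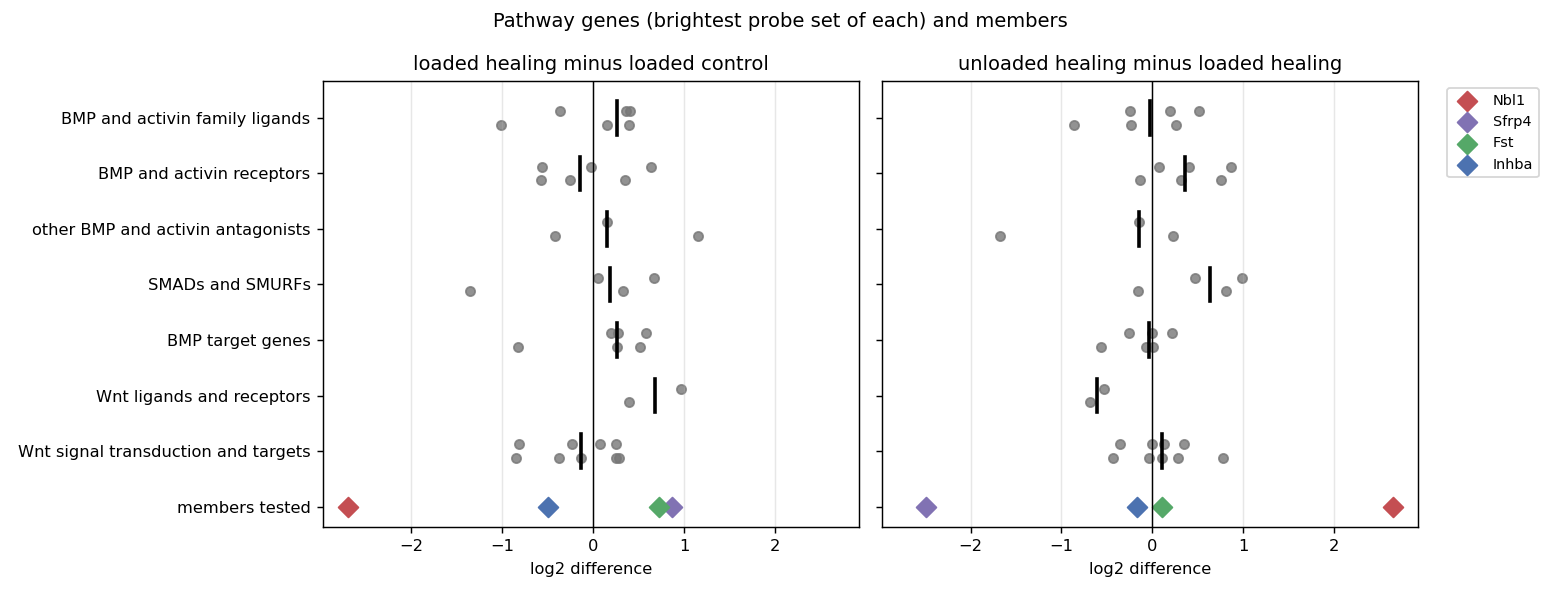
Log2 difference of the 36 tested pathway genes (grey points, 1 probe set per gene; black bars are list medians) and of the 4 tested members (diamonds) for loaded healing minus loaded control and unloaded healing minus loaded healing. Pathway genes lie between -1.68 and 1.16, and Nbl1 lies outside that range in both panels and Sfrp4 in the right one. Both were chosen with such differences in view, so nothing is read from their place outside it.

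Among 3 other measured BMP and activin antagonists, Nog, Sostdc1 and Fstl1, the follistatin-like glycoprotein Fstl1 passed in the comparisons with the unloaded controls. Its brighter probe set (rc_AA849769_g_at) read 2297.1 and 2088.6 in loaded control, 4998.5 and 4888.2 in loaded healing, 1804.9 and 1263.7 in unloaded healing and 210.7 and 593.9 in unloaded control ligaments. It fell by 2.46 ± 0.39 log2 units in unloaded against loaded controls (limma adjusted p = 0.00223) and rose by 1.94 ± 0.39 in unloaded healing against unloaded control (0.0104). Fstl1 was the 1 of 36 pathway genes that passed in each of these comparisons. That is 2.78%, beside 6.81% and 7.46% of all tested probe sets. With 1 call among 36 genes, nothing is read about the pathway from these counts. Its other probe set (rc_AA849769_at) did not pass in either comparison, at -0.72 ± 0.75 (adjusted p = 0.665) and 0.85 ± 0.75 (0.576), so the calls belong to 1 of 2 probe sets. The fibroblast marker sum moved with Fstl1 in both comparisons, and its part was not tested. Between the healing groups the Fstl1 difference was -1.68 ± 0.39 (adjusted p = 0.0760), and the other probe set read 1.00 ± 0.75 there, of opposite sign.

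The inhibin alpha chain Inha passed in the interaction on 1 of its probe sets. That one (M32754cds_s_at) read 1897.8 and 1102.2 in loaded control, 845.0 and 419.4 in loaded healing, 1783.9 and 1454.2 in unloaded healing and 728.5 and 426.3 in unloaded control ligaments. Its healing difference was larger in unloaded than in loaded rats by 2.67 ± 0.60 log2 units (limma adjusted p = 0.0279). The brighter Inha probe set (M36453_at) gave -0.72 ± 0.56 (0.671), so the call belongs to 1 of 2 probe sets. Of all tested probe sets 4.84% passed in the interaction, 237 higher and 17 lower. On the brightest probe set of each, 0 of the 36 pathway genes did. The interaction also rests on the unloaded controls, which stood apart and, unlike the loaded controls, had no sham operation.

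The genes whose levels over the 8 arrays most resembled Nbl1, among 4174 probe sets with 1 symbol above the filter, were the cytoskeletal actin Actg1 (Pearson r = 0.989), the calpain subunit Capns1 (0.968), the actin-nucleating complex subunit Arpc1b (0.963), the translation factor Eef1a1 (0.962) and the small GTPase Arf1 (0.945). Over the 6 arrays without the unloaded controls these correlations were 0.969 to 0.996. They describe 8 arrays in 4 groups that share their scaling, and the loaded healing arrays were lowest for each. Other probe sets of the same genes did not always show the pattern: Eef1a1 had log2 differences of -2.75 and 2.67 (loaded healing against loaded control, then unloaded against loaded healing) on the matched probe set and 0.17 and -0.04 on M81088_at. Arpc1b had -1.59 and 1.33 on one and -0.23 and 0.05 on the other. Capns1 had -0.95 and 0.83 on the matched probe set, -2.62 and 2.49 on U53859_at and -0.03 and -0.10 on U53859_g_at. Nbl1 itself had 1 probe set, so no such check within the gene was possible.

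The genes most like Sfrp4 were Ugdh, which makes the UDP-glucuronate used in glycosaminoglycans (r = 0.956), the galactosyltransferase B4galt6 (0.923), the acetyltransferase subunit Naa15 (0.902), the citrate lyase Acly (0.892) and the guanine nucleotide exchange factor Dock9 (0.890). Without the unloaded controls these were 0.895 to 0.977. Acly had log2 differences of 0.71 and -1.08 on the matched probe set, in the same order of comparisons, but -0.74 and 0.74 on J05210_at and -0.10 and -0.38 on L27075_g_at. Ugdh had 0.26 and -0.78 on the matched one and -0.06 and -0.65 on rc_AI103698_at. The span of levels was narrower for Ugdh, from 1605.4 in unloaded healing to 3080.2 in loaded healing, than for Sfrp4, from 147.6 to 1136.0.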

How the data were processed

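The authors' deposited table holds linear signal intensity for 8799 probe sets on 8 arrays. The 2% trimmed mean was 500.3 to 500.6 on every array, so the authors had scaled the values. Which software summarised the probes is not given in the sources used here. The probe table pairs 7018 probe sets with 1 symbol, 308 with several and 1473 with none. The 59 control probe sets were set aside, an offset of 45.8, the table's 10th percentile, went onto each signal before log2, and the dimmest 40% by mean log2 were removed, which left 5244. Folds include the offset, which shrinks those of dim probe sets. A model with 1 mean per group (4 residual and 5.81 prior degrees of freedom) was fitted in R 4.3.3 (limma 3.58.1), with variances that follow intensity, two-sided tests and Benjamini-Hochberg adjustment. It was tested on simulated data.

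The members and gene lists were chosen with earlier results of these data known. All member probe sets were named. From each pathway list the rule named genes with a call, up to 3 per comparison. For likeness it took the 5 genes with the highest Pearson correlation over 8 arrays. Alternatives were other scalings, offsets, filters, variance priors, a replicate block, fits to fewer groups and leaving out each array. Promoter sequences are from RefSeq, assembly GRCr8.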

Additional observations from a re-analysis of the deposited data

Results flagged for a closer look

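For 4 of 10 member probe sets healing arrays lay on opposite sides of their own controls in loaded and in unloaded rats, with no overlap. Of all tested probe sets 7.72% did so, and of those below the filter 6.15%. The values are the healing difference in unloaded rats minus that in loaded rats. It was 3.54 log2 units for Nbl1, lower with healing in loaded and higher in unloaded rats, and -2.27 for Sfrp4, the reverse. For the dim probe sets it was -0.62 for Fst (rc_AA858520_at) and -1.40 for Bmp3 (D63860_s_at), both higher with healing in loaded and lower in unloaded rats. For these members the difference is a description without p-values, since the loaded healing arrays helped to choose them. Nbl1 and Sfrp4 were in the limma fit of tested probe sets, and nothing is read from their result there. The dim probe sets were not tested. The difference also rests on the unloaded controls, which stood apart from the other arrays and, unlike the loaded controls, had no sham operation.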

How the results depend on the processing

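Of the counts of tested members past limma's threshold, the one between loaded healing and loaded control (1) was 0 without an intensity trend in the variances, and 0 to 1 when each array was left out in turn. Between the healing groups the count (2) was 0 without the trend and 0 to 2 with arrays left out. Between unloaded healing and unloaded control it (0) was 2 under quantile normalization, 1 under median centring and 1 without the trend. For the interaction (1) it was 2 under scaling to the spike-in controls and 2 with 60% of probe sets removed, where Sfrp4 was added. The count stayed at 0 in all settings between unloaded healing and loaded control and between the control groups. Of 60 member differences (10 probe sets in 6 comparisons), 21 had the opposite sign in at least 1 setting, 4 of 24 for tested members and 17 of 36 for dim ones, and 0 of the 4 called. The tested ones were Nbl1 between unloaded healing and loaded control (-0.12 to 0.020 with arrays left out, the latter without loaded control 2), Sfrp4 between the control groups (-0.57 to 0.14 with arrays left out, 0.14 without loaded control 2 and 0.09 without unloaded control 1), the brighter Fst probe set between the healing groups (down to -0.36) and Inhba between the healing groups (up to 0.14). Spike-in scaling moved the median of all probe sets from -0.03 to 0.34 in loaded healing and from 0.06 to -0.40 between the healing groups, and Nbl1 and Sfrp4 kept their directions in both. The 4 called differences were of these genes, in comparisons that helped to choose them, so nothing is read from their kept signs. The count of all tested probe sets past the threshold moved by over 1.5 times in these settings. Between loaded healing and loaded control 106 became 64 with median centring, 70 without a filter, 29 without the trend and 27 to 94 with arrays left out. Between the healing groups 85 became 42, 16 and 25 to 83 with median centring, without the trend and with arrays left out, and 137 under spike-in scaling. Between unloaded healing and loaded control 4 became 0 to 7. Under quantile normalization 357 became 591 between the control groups and 391 became 619 between the unloaded groups. Scaling also moved the split of higher and lower calls: from 54 and 52 to 84 and 22 in loaded healing and from 40 and 45 to 18 and 119 between the healing groups (spike-in), from 31 and 326 to 205 and 386 between the controls and from 336 and 55 to 387 and 232 between the unloaded groups (quantile), and for the interaction from 237 and 17 to 251 and 80 (quantile) or 184 and 47 (spike-in). With replicate number as a block the member counts were unchanged (1, 2, 0, 0, 0 and 1), and of all probe sets 7 in place of 4 passed between unloaded healing and loaded control. Deviations of same-numbered arrays correlated at 0.16 to 0.20 among loaded control, loaded healing and unloaded healing and at 0.00 to 0.01 with unloaded controls. The labels give the numbers no meaning, so whether they mark a shared batch is unknown. For Bmp3 (S77492_i_at) the block lowered the SE from 0.75 to 0.49 and for Bmp4 from 0.54 to 0.36, with the same differences. The cause of these changes was not tested. Fewer arrays in a fit did not always widen its errors. For Nbl1 between loaded healing and loaded control the errors widened without either loaded control array. They narrowed without either loaded healing array.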
